A study of Mus musculus with 6 samples.

Results

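The H3K56ac peaks at starts of long non-coding RNA (lncRNA) genes numbered 249 of the 11106 merged H3K56ac peaks of mouse embryonic stem cells (mESCs), or 2.24%. They were chosen by position, gene class and width alone. The peak midpoint lay over 3 kb from every transcription start site (TSS) of a protein-coding gene and within 1 kb of a transcript start of a gene that GENCODE M21 (mm10) classes as lincRNA, antisense, processed transcript, sense intronic, bidirectional promoter lncRNA or TEC, the class for transcripts still to be tested by experiment. The width was 321 to 2999 bp. Of all peaks, 3382 were distal by this limit and 289 of these lay at an lncRNA start. The width range then left out 17 narrower and 23 wider peaks. The 249 peaks made up 9.92% of the 2511 distal peaks of that width and covered 288.8 kb in all.

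The cells were V6.5 mESCs, a hybrid mouse line, grown undifferentiated on feeder cells with LIF. They carried a lentiviral shRNA, either scrambled (Scramble) or against *Sirt6* (Sirt6KD), which encodes a deacetylase of histone H3. Each group had 2 H3K56ac ChIP libraries and 1 input library, all from cells that shared the feeder culture and the lentiviral infection. The peaks of all libraries had been merged into 1 set with no height, count or library of origin, so Scramble and Sirt6KD cannot be compared here, and no value below has a replicate. The study's reporting summary lists more called peaks for each Sirt6KD library than for each Scramble library. How many of the 249 peaks were called in Sirt6KD cells only cannot be told here. All 249 peaks are described by where they lie and by the reference sequence under them, and intervals on shares are 95% Wilson intervals that cover counting error only.

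H3K56ac is an acetyl group on a lysine in the globular core of histone H3, close to where DNA enters and leaves the nucleosome. It marks newly made histones and is also found at active promoters and enhancers. lncRNAs are transcribed by RNA polymerase II and many are capped and spliced like mRNAs, but they encode no known protein. Their starts can be promoters of their own or can lie in enhancers, which are often transcribed, and several lncRNAs act in pluripotency, in X inactivation and at imprinted loci.

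The peaks ranged from sequence dense in CpG, as at many promoters of widely used genes, to sequence almost without it. To show this range, 250 bases around the midpoint of 5 peaks are given on the strand of the lncRNA, read from the mm10 reference and not from the cells. Capitals mark each CpG. The CpG ratio is the number of CpG divided by the number the C and G content would give, over the central 400 bases of a peak. *Fbxl12os*, transcribed opposite to *Fbxl12*, had a ratio of 0.865 and 20 CpG in the window at chr9:20607241-20607490 (plus strand), centred 92 bp upstream of the start.

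Fbxl12os: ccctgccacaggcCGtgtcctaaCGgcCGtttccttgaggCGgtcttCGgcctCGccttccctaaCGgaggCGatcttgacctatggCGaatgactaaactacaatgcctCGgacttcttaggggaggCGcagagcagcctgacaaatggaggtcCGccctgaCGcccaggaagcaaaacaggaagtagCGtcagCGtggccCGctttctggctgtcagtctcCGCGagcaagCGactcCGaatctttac

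*Kcnq1ot1* is an imprinted antisense RNA that silences neighbouring genes on the paternal chromosome. Its ratio was 1.06, and the exonic window at chr7:143295696-143295945 (minus strand) held 18 CpG.

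Kcnq1ot1: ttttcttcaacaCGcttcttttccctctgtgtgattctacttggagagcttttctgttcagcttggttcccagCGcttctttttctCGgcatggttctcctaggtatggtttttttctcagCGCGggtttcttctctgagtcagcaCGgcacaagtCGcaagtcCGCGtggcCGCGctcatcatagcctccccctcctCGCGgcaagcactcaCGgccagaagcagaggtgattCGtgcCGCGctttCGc

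*Ftx*, a lncRNA of the X inactivation centre, had the highest ratio of all members, 1.14, but a GC content of only 36.5%. Its window at chrX:103622670-103622919 (minus strand), in an intron of *Ftx*, held 8 CpG among runs of alternating A and T.

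Ftx: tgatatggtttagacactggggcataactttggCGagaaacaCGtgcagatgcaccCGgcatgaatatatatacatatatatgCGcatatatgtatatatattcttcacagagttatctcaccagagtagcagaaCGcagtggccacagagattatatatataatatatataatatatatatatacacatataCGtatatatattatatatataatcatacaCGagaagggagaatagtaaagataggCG

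*Pvt1*, the lncRNA next to the oncogene *Myc*, had a ratio of 0.052, with only *Gm48684* (0) and *Gm35048* (0.037) below it. The window at chr15:62038997-62039246 (plus strand) lay in an intron of *Pvt1*, held 0 CpG and contained a long GT repeat.

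Pvt1: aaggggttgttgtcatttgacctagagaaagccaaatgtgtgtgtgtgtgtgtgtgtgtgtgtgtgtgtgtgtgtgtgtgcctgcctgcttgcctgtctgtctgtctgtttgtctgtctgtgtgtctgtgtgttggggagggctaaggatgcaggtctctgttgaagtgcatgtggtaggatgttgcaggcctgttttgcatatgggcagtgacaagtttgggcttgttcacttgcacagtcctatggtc

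*Platr9* is a pluripotency-associated transcript, one of a group of lncRNAs named for their expression in mESCs. Its peak had a ratio of 0.094, and the window at chr4:34911595-34911844 (minus strand), upstream of the gene, held 1 CpG.

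Platr9: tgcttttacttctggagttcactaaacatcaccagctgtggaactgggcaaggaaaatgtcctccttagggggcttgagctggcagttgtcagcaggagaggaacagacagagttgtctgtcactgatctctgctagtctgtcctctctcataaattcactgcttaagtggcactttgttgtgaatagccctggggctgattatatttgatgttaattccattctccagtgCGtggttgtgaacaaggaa

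Most of the peaks lay on the start itself. Of the 249, 180 (72.3%, 66.4 to 77.5%) covered the nearest annotated lncRNA start, although the rule required the midpoint only within 1 kb. The midpoint lay downstream of the start in 158 and upstream in 91, and the median position was 143 bp downstream (95% interval of the median 73 to 225 bp). It was within 250 bp of the start in 104 peaks (41.8%) and within 500 bp in 181 (72.7%). The share of peaks that covered a given position was highest 150 bp downstream of the start, at 77.9%, and was 42.2% at 500 bp upstream against 66.3% at 500 bp downstream. Since the position chose the members, these values describe them and were not tested.

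**Figure D1:**
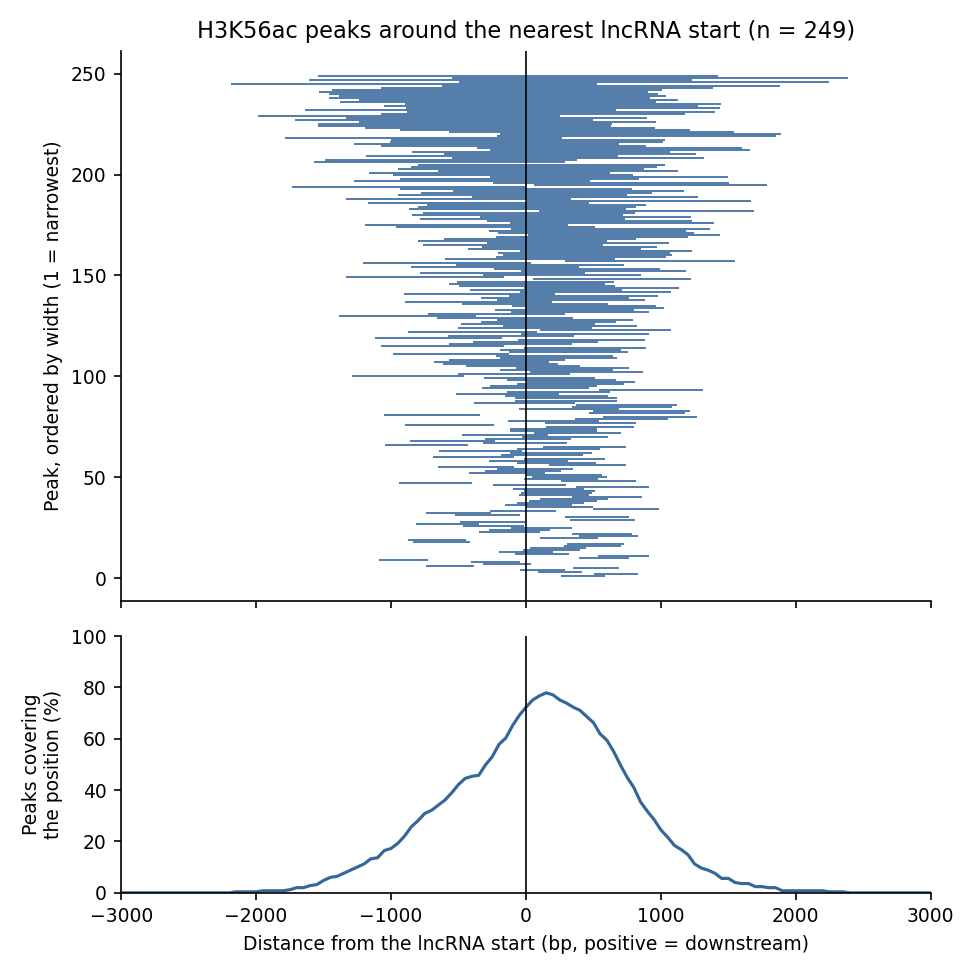
Upper panel, each of the 249 peaks as a line from its upstream to its downstream edge relative to the nearest lncRNA start (bp, positive downstream), ordered by width with the narrowest at the bottom. Lower panel, percent of the peaks that cover each position, which is 72.3% at the start and highest, 77.9%, at 150 bp downstream.

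With respect to the gene model of that lncRNA, 84 midpoints (33.7%) fell in an exon, 98 (39.4%) in an intron and 67 (26.9%) outside the gene. Coverage of the start went with width, as the geometry requires: 33 of the 83 narrowest peaks covered it (39.8%), and 78 of the 83 widest (94.0%). The median width was 996 bp (quartiles 613 and 1656 bp), compared with 700 bp for the 2262 other distal peaks of the width range and 1108 bp for the 6167 peaks of that range at coding promoters, those with a midpoint within 1 kb of a coding TSS.

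Of the 249 peaks, 147 lay nearest to a lincRNA start, 45 to a processed transcript, 33 to an antisense gene, 23 to a TEC gene and 1 to a sense intronic gene. Peaks at the 33 antisense genes had the most downstream position of the 4 larger types, with a median of 236 bp and 26 midpoints (78.8%) downstream. At the 45 processed transcripts the median was -49 bp, that is upstream, with 21 midpoints (46.7%) downstream. The start was covered in 78.8% of antisense, 75.5% of lincRNA, 66.7% of processed transcript and 52.2% of TEC peaks. TEC peaks also had a RefSeq non-coding start within 1 kb in only 3 of 23 cases, compared with 31 of 45 for processed transcripts. Over all 249, RefSeq placed a non-coding start within 1 kb of 132 midpoints (53.0%, 46.8 to 59.1%) and an mRNA start near 13 (5.22%), and 109 had neither. For these 109, and for peaks with only an mRNA start nearby, the place at a lncRNA start rests on the GENCODE models alone.

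The values that set the limits were close on both sides. The narrowest member, at *AC165962.2*, was 321 bp wide, and a peak of 314 bp at *Gm43275* was just too narrow. The widest, at *Gm39458*, measured 2960 bp, and one of 3037 bp at *E130102H24Rik* was left out. The member farthest from its lncRNA start, at *Gm5953*, lay 926 bp away, and the next peak out, at *Gm46332*, 1009 bp. The member closest to a coding TSS, at *Gm12996*, lay 3274 bp from *Hpdl*, and the peak at *4930566F21Rik*, 2878 bp from a coding TSS, was not included.

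The sequence under the peaks had not been used to choose them. Their CpG ratio had a median of 0.459 (quartiles 0.295 and 0.633), between the 0.268 of the other distal peaks (0.167 and 0.401) and the 0.625 of coding promoter peaks (0.447 and 0.812). A ratio over 0.6, here termed CpG-rich, occurred in 78 of the 249 (31.3%, 25.9 to 37.3%), in 6.85% (5.88 to 7.97%) of other distal peaks, in 53.3% (52.0 to 54.5%) of coding promoter peaks and in 36.8% of all 11106 peaks. GC content followed the same order, with medians of 51.8%, 49.0% and 55.8%. Since a high ratio can go with few G and C bases, as at *Ftx*, peaks with both a ratio over 0.6 and a GC content over 50% were counted as well, and there were 61 (24.5%, 19.6 to 30.2%), compared with 4.20% of other distal and 46.5% of coding promoter peaks.

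The lncRNA-start peaks were wider than other distal peaks, so the share was also taken within width bands. Below 700 bp, 22 of 80 were CpG-rich (27.5%, 18.9 to 38.1%), against 5.13% of other distal and 36.5% of coding promoter peaks. From 700 bp to under 1400 bp the share was 26.7% of 86, against 7.14% and 37.4%. From 1400 bp upwards it was 39.8% of 83, against 11.5% and 78.7%. In each band the interval of the lncRNA-start peaks lay above that of the other distal peaks. It overlapped that of coding promoter peaks in both narrower bands and lay below it among the peaks of 1400 bp or more (29.9 to 50.5%, against 77.0 to 80.3%).

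**Figure D2:**
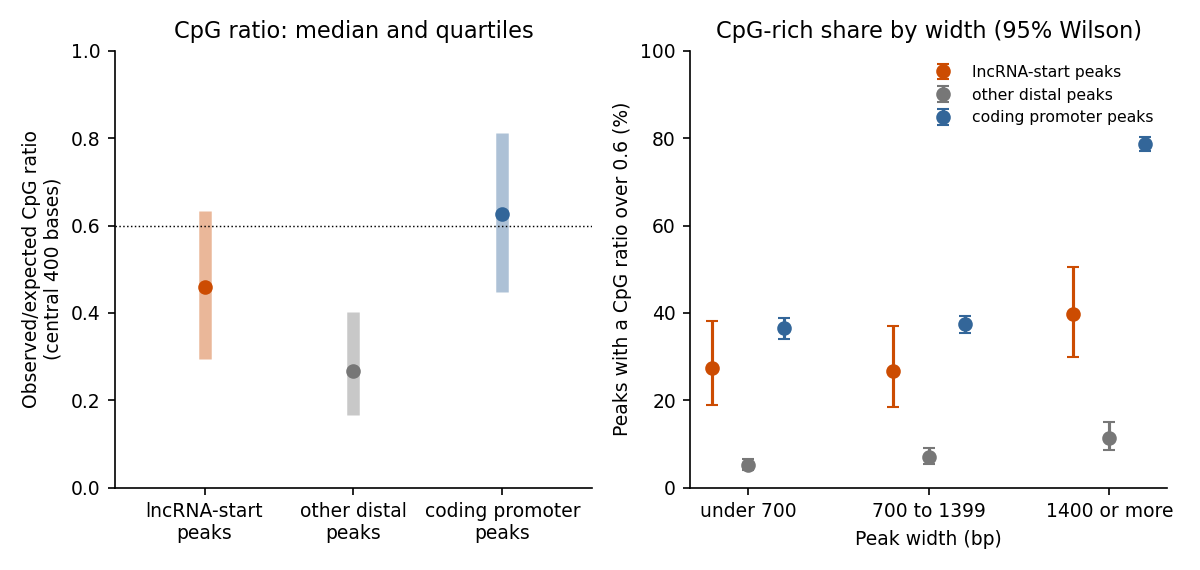
Left, median (point) and quartiles (bar) of the CpG ratio in the central 400 bases for 249 lncRNA-start peaks, 2262 other distal peaks and 6167 coding promoter peaks of the same width range, with the limit of 0.6 dotted. Right, percent of peaks over that limit in 3 bands of peak width with 95% Wilson intervals; the lncRNA-start peaks stand at 27.5%, 26.7% and 39.8%, above the other distal peaks in each band.

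CpG-rich members differed from the other 171 in more than composition. They covered the start in 65 of 78 cases (83.3%) and had a midpoint within 250 bp of it in 43 (55.1%), compared with 115 of 171 (67.3%) and 61 (35.7%). Their median width was 1154 bp against 910 bp. They lay closer to a coding TSS, with a median of 15146 bp against 26628 bp. RefSeq placed a non-coding start within 1 kb of 50 of them (64.1%), and of 82 (48.0%) of the rest. These are counts over single peaks, and whether the classes differ was not tested.

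Few of the starts lay in repeats. The base at the lncRNA start was repeat-masked in the reference for 36 of the 249 (14.5%, 10.6 to 19.4%), compared with 29.3% of the 9822 distal lncRNA genes without a peak. Over the central 400 bases, 4 peaks (1.61%) were masked over more than 50% of their length, compared with 7.69% of other distal and 0.730% of coding promoter peaks. The authors kept reads with a single location, so identical repeats may have no reads at all, and the part of this in these shares was not tested.

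Short motifs were searched in the central 400 bases on both strands, by exact letters. The 13 motifs were the octamer ATTTGCAT of POU5F1, AP-1 TGACTCA, SOX CATTGTT, ESRRB TCAAGGTCA, KLF GGGTGTGG, STAT3 TTCCNGGAA, E-box CACGTG, NRF1 GCATGCGC, ETS CCGGAAG, SP GGGGCGGGG, YY1 AAGATGGCG, CREB TGACGTCA and NFY CCAATCA. E-box, STAT3 and CREB read the same on both strands, and no match is a measured binding site. The CCAAT-type motif of NFY, a factor of many promoters, was in 21 of the 249 windows (8.43%, 5.58 to 12.6%), compared with 3.98% (3.25 to 4.87%) of other distal peaks, 5.55% (5.002 to 6.15%) of coding promoter peaks and 5.05% of all peaks. To show such matches, 47 bases around the motif are printed for 3 of them on the lncRNA strand, with the match in capitals. At *Mir17hg*, the host of the miR-17 cluster, it lay 371 bp upstream of the start (chr14:115042485-115042531, plus strand). At *BC002059* it lay 137 bp upstream (chr17:16951379-16951425, plus strand), and at *Srrm4os* 88 bp downstream in an exon (chr5:116438785-116438831, plus strand).
Mir17hg: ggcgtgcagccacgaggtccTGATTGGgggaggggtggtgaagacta
BC002059: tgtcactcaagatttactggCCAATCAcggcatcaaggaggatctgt
Srrm4os: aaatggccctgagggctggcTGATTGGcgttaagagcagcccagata

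The GC-rich SP motif and the ETS motif, both frequent at promoters, stood between the 2 reference sets. SP was found in 14 windows (5.62%, 3.38 to 9.22%), in 2.17% of other distal and 9.03% of coding promoter peaks. ETS was found in 23 (9.24%, 6.23 to 13.5%), against 5.39% and 13.9%. Of the 14 windows with SP, 8 were among the 78 CpG-rich members and 6 among the other 171. *Sox2ot*, which spans *Sox2* on the same strand, held an SP match 389 bp upstream of the nearest start, within an intron (chr3:34664830-34664878, plus strand).
Sox2ot: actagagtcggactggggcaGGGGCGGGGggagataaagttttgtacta

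For motifs that are typical of enhancers, the intervals overlapped those of other distal peaks. AP-1 was in 16 windows (6.43%, 3.99 to 10.2%), against 9.20% of other distal and 4.54% of coding promoter peaks. SOX was in 15 (6.02%, 3.68 to 9.70%), against 5.75% and 3.05%, and 14 of the 15 were CpG-poor members. The octamer was in 4 (1.61%, 0.626 to 4.06%), against 2.08% and 1.15%. The AP-1 match at *Platr9* lay 110 bp upstream of the start (chr4:34911568-34911614, minus strand) and that at *Kcnq1ot1* 743 bp downstream (chr7:143295783-143295829, minus strand).
Platr9: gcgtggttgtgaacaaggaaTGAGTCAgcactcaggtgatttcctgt
Kcnq1ot1: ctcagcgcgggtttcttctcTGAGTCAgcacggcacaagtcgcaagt

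SOX matches lay at *Mir17hg*, 187 bp upstream (chr14:115042669-115042715, plus strand), at *Platr8*, 46 bp upstream (chr2:109913342-109913388, minus strand), and at *Trp53cor1*, a p53-induced lncRNA also known as lincRNA-p21, 361 bp downstream in an intron (chr17:29078795-29078841, minus strand).
Mir17hg: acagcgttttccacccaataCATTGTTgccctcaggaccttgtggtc
Platr8: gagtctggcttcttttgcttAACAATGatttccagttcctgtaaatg
Trp53cor1: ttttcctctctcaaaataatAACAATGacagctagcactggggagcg

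Of the remaining motifs, the E-box was in 29 windows (11.6%, 8.23 to 16.2%), against 8.31% of other distal and 9.57% of coding promoter peaks. KLF was in 12 (4.82%), against 3.76% of other distal and 3.76% of coding promoter peaks, and STAT3 in 6 (2.41%), against 2.03% and 1.56%. NRF1 was in 5 (2.01%, against 0.884% and 2.76%), ESRRB in 2 (0.803%, against 1.19% and 0.778%) and CREB in 1 (0.402%, against 0.53% and 1.52%). YY1 was in 0 of 249, which allows a share of up to 1.21% if 0 stands for at most 3 counts and 1.52% by the Wilson interval, and occurred in 0.840% of other distal and 2.25% of coding promoter peaks. None of the 13 motifs was in the window of 132 members, a count not made for the other sets. No TATAAA was found from 40 to 15 bases before the nearest start of any member, again 0 of 249 with the same limits. Counted by gene, TATAAA was rare in general. It occurred at 1 of 260 distal lncRNA genes with a member (0.385%, 0.0679 to 2.15%). Among the 9822 without a peak it occurred at 122 (1.24%, 1.04 to 1.48%), and the intervals overlapped. With 13 motifs compared and no test made, only NFY and SP had intervals apart from those of other distal peaks.

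**Figure D3:**
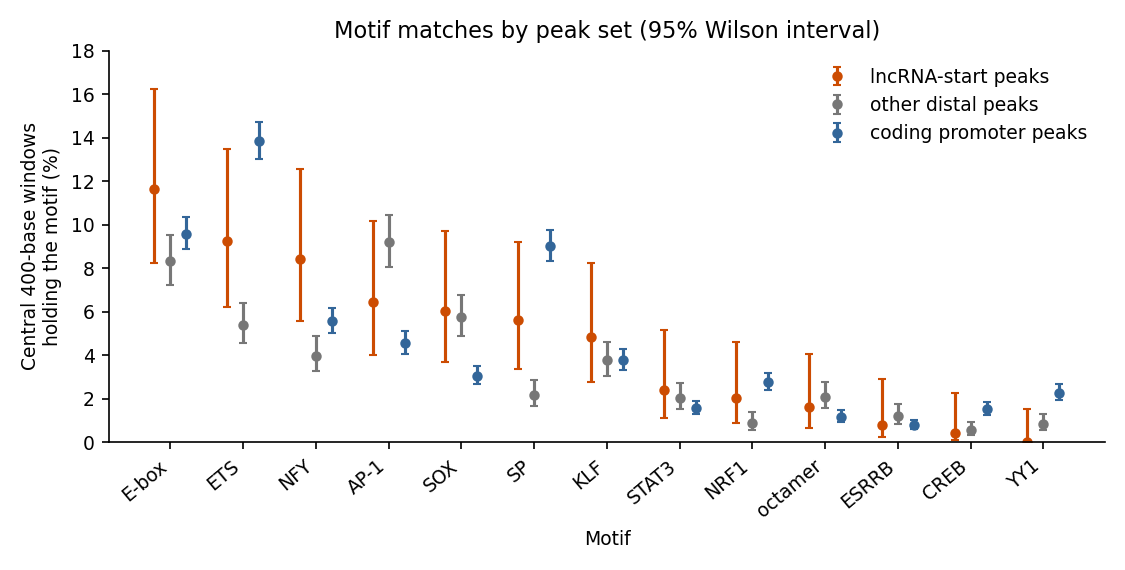
Percent of central 400-base windows that hold each of 13 motifs on either strand, for lncRNA-start, other distal and coding promoter peaks of the same width range, with 95% Wilson intervals and motifs ordered by their share in lncRNA-start peaks. NFY stands at 8.43% of lncRNA-start peaks and 3.98% of other distal peaks, while YY1 stands at 0.

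Seen from the genes, few lncRNA genes had a peak. Of 10123 lncRNA genes of these classes with every start over 3 kb from coding TSSs, 301 (2.97%, 2.66 to 3.32%) had a peak midpoint of any width within 1 kb of a start, and 260 of these had a member. CpG-rich starts, with a ratio over 0.6 within 500 bp on either side, had a peak in 95 of 293 genes (32.4%, 27.3 to 38.0%), and other starts in 206 of 9830 (2.10%, 1.83 to 2.40%). A CpG-rich start thus was found at 31.6% of genes with a peak and at 2.02% of the 9822 without. Still, 198 CpG-rich starts had no peak.

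By class, processed transcripts had a peak in 56 of 398 genes (14.1%, 11.0 to 17.8%), lincRNAs in 172 of 5285 (3.25%), antisense genes in 37 of 1525 (2.43%), TEC genes in 34 of 2651 (1.28%) and sense intronic genes in 2 of 263 (0.760%). The classes are those of GENCODE. RefSeq placed an mRNA start within 1 kb of 4 of the 45 processed transcript members (8.89%), among them those at *Trerf1* and *Ptpmt1*. Whether all genes of the class are non-coding was not tested. Genes with 2 or more exons had a peak in 246 of 7109 cases (3.46%, 3.06 to 3.91%), and single-exon genes in 55 of 3014 (1.83%, 1.41 to 2.37%). Among CpG-rich starts the shares were 31.4% of 236 multi-exon and 36.8% of 57 single-exon genes, with overlapping intervals, and among CpG-poor starts 2.50% and 1.15%. A start in a repeat went with a peak in 42 of 2916 genes (1.44%) and a start outside repeats in 259 of 7207 (3.59%).

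The share with a peak was lower farther from coding genes. It was 4.46% (3.59 to 5.54%) of 1725 genes with a coding TSS within 10 kb, 4.11% from 10 to 50 kb, 3.14% from 50 to 100 kb, and 0.738% (0.492 to 1.11%) of 3116 genes beyond 100 kb. The median distance to a coding TSS was 21865 bp for genes with a peak and 45513 bp for those without.

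**Figure D4:**
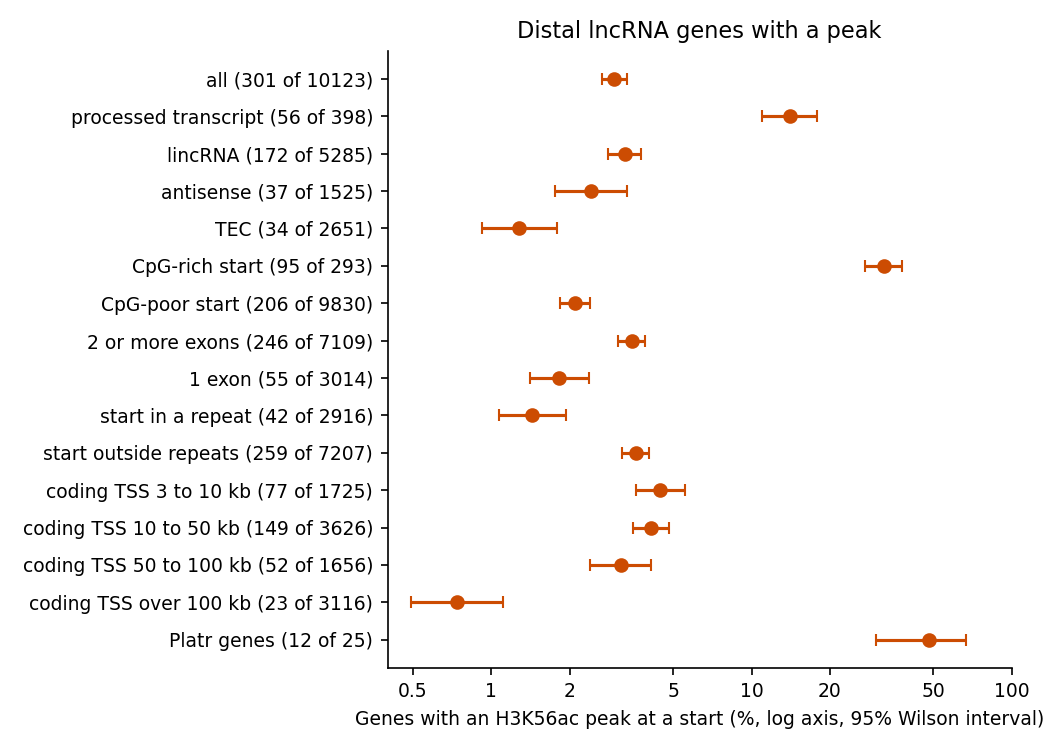
Percent of distal lncRNA genes with an H3K56ac peak at a start (log axis), by class, CpG ratio and exon number of the gene, by repeat at the start, by distance to a coding TSS and for *Platr* genes, with 95% Wilson intervals and the counts in the labels. CpG-rich starts (32.4%) and *Platr* genes (48.0%) stand above all distal genes (2.97%), and genes over 100 kb from a coding TSS (0.738%) below.

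The *Platr* genes, whose RNAs are associated with pluripotency, were the named group with the most members. Over all 13339 lncRNA genes, 1252 (9.39%) had a start within 1 kb of a peak midpoint or inside a peak, whatever its width or distance to a coding TSS, and 266 (1.99%) had a member. Of 28 *Platr* genes in the annotation, 11 had a member, 2 a peak near a coding TSS, 1 a peak wider than the range and 1 a start inside a wide peak with a distant midpoint, and 13 had no peak. By the definition used for all distal genes, 12 of 25 *Platr* genes (48.0%, 30.03 to 66.5%) had a peak, beside 2.97% of all. The group was named for expression in mESCs, the cells studied here. Of the 11 peaks, 7 covered the start, at *Platr4*, *Platr6*, *Platr8*, *Platr11*, *Platr12*, *Platr16* and *Platr26*, and those at *Platr9*, *Platr19*, *Platr21* and *Platr27* did not. Widths ranged from 361 bp at *Platr21* to 2339 bp at *Platr12*, with a median of 1067 bp. The peak at *Platr12* (chr1:63199814-63202152) alone was CpG-rich, with a ratio of 0.673 but a GC content of 34.5%, and the median ratio was 0.356.

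*Platr8* (chr2:109912661-109913918) was the member of the group closest to a coding TSS, at 4358 bp from *Lgr4*, which encodes a receptor of the R-spondin and Wnt pathway. *Platr11* (chr9:118405013-118406271) lay 72570 bp from *Eomes*, a transcription factor of early lineages, and *Platr19* (chr12:12788315-12788794) 152062 bp from *Mycn*, a MYC family transcription factor. The peak at *Platr6* (chr10:21844059-21845835) measured 1777 bp, with another peak 1320 bp away. Widest of those without a member was the peak of 7857 bp at *Platr22*, and *Platr10* started in one of 6183 bp.

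Of 8 lncRNAs listed for roles in stem cells, 3 had members. They were *Dancr*, known to hold back differentiation (chr5:74093156-74094883, 1728 bp), *Lncpint*, a p53-induced transcript (chr6:31219910-31220498, 589 bp), and *Oip5os1*, also known as Cyrano and listed by GENCODE as *1700020I14Rik* (chr2:119594454-119595103, 650 bp). The peak at *Oip5os1* was CpG-rich, with a ratio of 0.825, and its midpoint lay 475 bp downstream of the start. The peak at *Lncpint* covered its start 20 bp from the midpoint. The peak at *Dancr* covered no start of that gene. Its nearest start was that of *Gm43416*, a TEC gene, with the midpoint 868 bp upstream. *Lncenc1*, a lncRNA of naive pluripotency, had a peak of 5361 bp, above the width range. *Evx1os*, *Halr1* and *Miat* had no peak, and for *Tunar* no gene of that name or its RefSeq synonyms was found in the classes used.

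Of 5 lncRNAs of X inactivation, *Tsix* and *Ftx* had members. *Tsix*, the antisense repressor of *Xist*, had a peak of 1032 bp over its start (chrX:103447712-103448743, CpG ratio 0.648), 136234 bp from the next peak. *Ftx* had 2, of 1966 bp over a start (chrX:103621813-103623778) and of 378 bp (chrX:103615926-103616303), with midpoints 6681 bp apart. *Firre* started in a peak of 3329 bp with a distant midpoint. *Xist* itself and *Jpx* had no peak. Of 9 imprinted lncRNAs, *Kcnq1ot1* alone had a member (chr7:143295109-143296533, 1425 bp), which began just inside the gene. *Meg3* had a peak of 237 bp, below the range, *Nespas* one near a coding TSS, and *H19*, *Rian*, *Mirg*, *Airn*, *Peg13* and *Snhg14* had none.

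Of 25 host genes of small RNAs, 15 had a peak at a start by the widest definition, beside 9.39% of all lncRNA genes, and 5 of these had members, beside 1.99%. *Snhg12* (chr4:132308356-132310738) and *Snhg17* (chr2:158359429-158361640), hosts of small nucleolar RNAs, had wide peaks of 2383 and 2212 bp. Those at the microRNA hosts were narrower, with 853 bp at *Mir17hg* (chr14:115042262-115043114), 771 bp at *Mir670hg* (chr2:94178289-94179059) and 431 bp at *Mir124a-1hg* (chr14:64587437-64587867), the host of a neuronal microRNA. The peak at *Mir17hg* stood alone, with the next one 625510 bp away. The other 10 were 4 peaks near a coding TSS, at *Gas5*, *Mir22hg*, *Snhg1* and *Snhg3*, 3 above the width range, at *Snhg5*, *Snhg6* and *Snhg15*, and 3 with distant midpoints, at *Snhg7os*, *Snhg9* and *Snhg20*. The 10 hosts without a peak were *Snhg8*, *Snhg10*, *Snhg14* and *Snhg18* and the microRNA hosts *Mir124-2hg*, *Mir133a-1hg*, *Mir142hg*, *Mir155hg*, *Mir9-3hg* and *Mir99ahg*.

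Of the nuclear lncRNAs, *Malat1*, which resides in nuclear speckles, had a narrow peak of 469 bp (chr19:5797813-5798281) with a neighbouring peak 1517 bp away. It ended upstream of the nearest transcript start, with a midpoint 583 bp upstream. That start lay inside the gene, since the midpoint was in an exon of *Malat1*. Another start of *Malat1* was covered by a peak that was not a member. *Neat1*, the scaffold of paraspeckles, had no peak. Of 10 developmental lncRNAs, *Sox2ot* was the single gene with a member, and *Hotair*, *Hottip*, *Fendrr*, *Pantr1*, *Pantr2*, *Rmst*, *Six3os1*, *Dlx6os1* and *Gata6os*, which act in limb, heart, gut or neural development or lie beside genes that do, had no peak. The lists hold few genes each, and their counts were not tested.

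**Figure D5:**
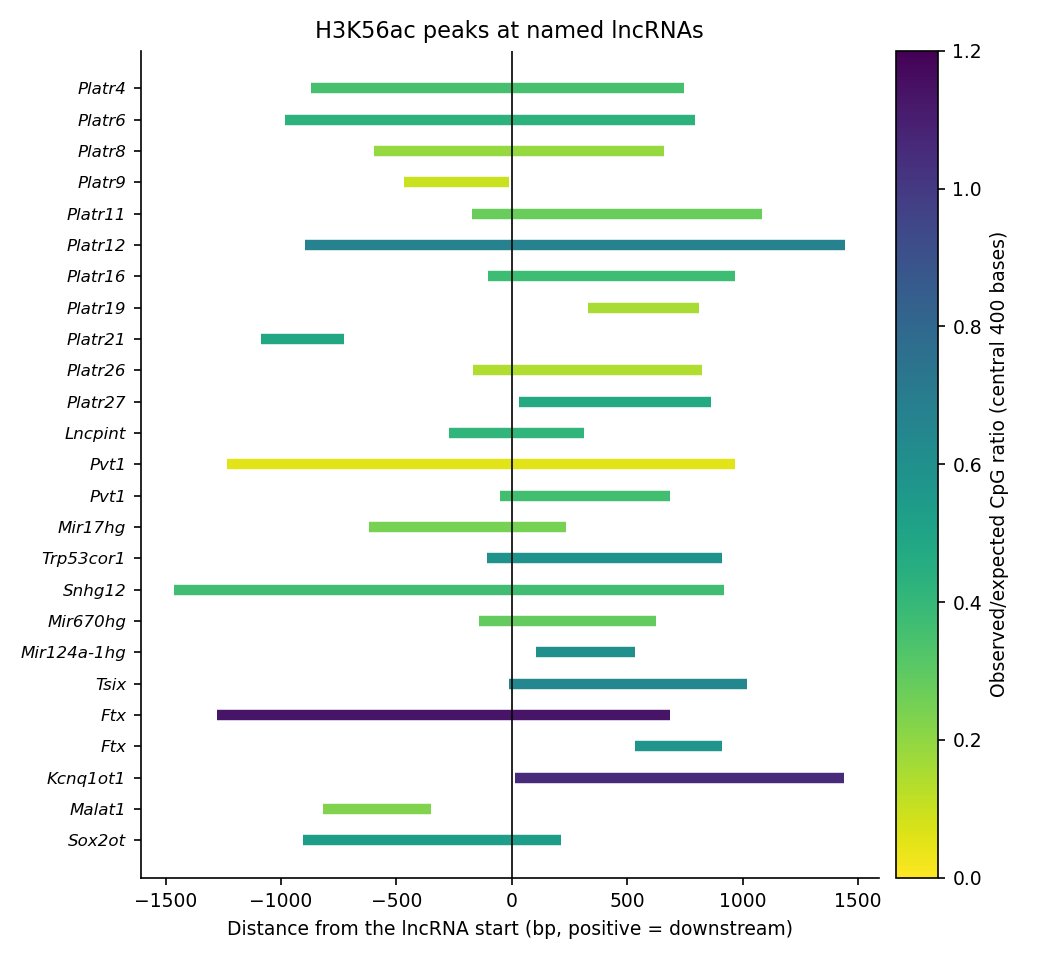
Peaks at named lncRNAs as bars from the upstream to the downstream edge relative to the nearest start (bp, positive downstream), shaded by the CpG ratio of the central 400 bases. Of the 25 peaks of 23 lncRNAs, 17 cover the start, and those at *Ftx* (1.14) and *Kcnq1ot1* (1.06) have the highest ratios.

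The nearest coding gene of a member was a median of 23988 bp away (quartiles 10073 and 51909 bp), compared with 15348 bp for other distal peaks, and 66 members (26.5%, 21.4 to 32.3%) were over 50 kb from any coding TSS, compared with 18.2% (16.6 to 19.8%). The lincRNA class of the rule, intergenic by name, bears on these distances, and the differences were not tested. The nearest coding gene had an H3K56ac peak at its own promoter for 137 members (55.0%, 48.8 to 61.1%) and for 56.5% of other distal peaks, so the shares overlapped within counting error. CpG-rich members had one in 38 of 78 cases (48.7%) and the others in 99 of 171 (57.9%). At TEC genes it was 17 of 23 (73.9%) and at antisense genes 14 of 33 (42.4%).

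Of 18 pluripotency genes listed, 3 (16.7%, 5.84 to 39.2%) were the nearest coding gene of a member, beside 235 of all 21938 coding genes (1.07%). The peak over *Sox2ot* (chr3:34664338-34665455, 1118 bp) lay 14491 bp from the TSS of *Sox2*, a core pluripotency factor, with another peak 2512 bp away. No peak midpoint lay within 1 kb of a *Sox2* TSS. *Gm12510* (chr4:55465568-55466330, 763 bp) lay 65821 bp from *Klf4*, which had a promoter peak. *Gm16201* (chr7:139950546-139951518, 973 bp, CpG ratio 0.763) lay 7243 bp from *Utf1*, a chromatin protein of pluripotent cells, with no peak midpoint within 1 kb of a *Utf1* TSS. *Trp53cor1* (chr17:29078269-29079287, 1019 bp) lay 12198 bp from *Cdkn1a*, the p53-induced inhibitor of the cell cycle.

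Most members lay between genes. The lncRNA start was outside all coding gene bodies for 215, inside one on the opposite strand for 24, on the same strand for 9, and in genes of both strands for 1. By midpoint, 34 members (13.7%, 9.94 to 18.5%) were in a coding gene body, compared with 44.0% (41.9 to 46.0%) of other distal peaks. The lincRNA class of the rule, which held 147 members, stands for long intergenic non-coding RNA. The rule thus partly set this difference in advance, and it was not tested. The 24 that were antisense within a coding gene had a midpoint downstream of the lncRNA start in 20 cases (83.3%), with a median of 308 bp, and covered the start in 16.

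Pairs of lncRNAs shared a peak in 23 cases. Going by their closest starts, in 10 of these the genes ran away from each other, with starts 28 to 954 bp apart and a median of 118 bp. *Fbxl12os* and *Gm48069* were such a pair, with starts 52 bp apart, and *4930535G08Rik* and *Gm33222* were the closest. *Dleu2*, a lncRNA of a region lost in some leukaemias, and *Gm27017* lay 128 bp apart under a peak of 1160 bp (chr14:61648377-61649536). In another 10 the genes ran towards each other, with starts 41 bp apart at the least, for *Lncpint* and *2210408F21Rik*, and 1403 bp at the most. The remaining 3 pairs were on the same strand.

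Conversely, 5 lncRNAs were nearest to 2 members each, so that the 249 peaks had 244 nearest genes. Those of *Pvt1* were the farthest apart, with midpoints 60225 bp from each other. The first (chr15:62038023-62040222, 2200 bp) lay 51700 bp from the *Myc* TSS and the second (chr15:62098979-62099716, 738 bp) 111925 bp from it, and both covered a start of *Pvt1*. At *D230017M19Rik* peaks of 2941 and 1478 bp had midpoints 6408 bp apart, at *1810019N24Rik* peaks of 1867 and 678 bp 11886 bp apart, and at *Gm19705* peaks of 1217 and 2175 bp 12345 bp apart. In the pairs at *Ftx* and *1810019N24Rik* the wider peak also had the higher CpG ratio, and in those at *D230017M19Rik*, *Pvt1* and *Gm19705* the lower one.

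The 10 widest members all covered their lncRNA start. After *Gm39458* (2960 bp) and *D230017M19Rik* (2941 bp) came *Gm13580* (2835 bp, chr2:60409919-60412753), *Gm47430* (2748 bp), *Gm12100* (2713 bp), *Gm26576* (2506 bp), *1700028E10Rik* (2456 bp), *Gm13110* (2449 bp), *1110038B12Rik* (2434 bp) and *AA914427* (2433 bp). Their CpG ratios spanned 0.156 at *Gm12100* to 0.830 at *1700028E10Rik*, so wide members had both low and high ratios. Of the 10 narrowest, from 321 bp at *AC165962.2* to 373 bp at *Gm37472*, 2 covered the start, at *Gm12915* and *Gm26660*.

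Other peaks were often close by. The midpoint of another peak lay within 10 kb of 90 members (36.1%, 30.4 to 42.3%), compared with 41.2% (39.2 to 43.2%) of other distal and 25.7% (24.6 to 26.8%) of coding promoter peaks, and within 50 kb of 185 (74.3%). By class the share within 10 kb was 12 of 23 for TEC genes, 57 of 147 for lincRNAs, 14 of 45 for processed transcripts and 7 of 33 for antisense genes. The median gap to the next peak was 19394 bp, against 13829 bp for other distal and 25162 bp for coding promoter peaks. No peaks of the merged set were closer than 1000 bp, so nearer enrichment would appear here as 1 wide peak.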

How the data were processed

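The deposited file gives merged H3K56ac peaks by chromosome, start and end, with constant name, score and strand columns. Per the study's methods, the authors trimmed reads (Trim Galore), mapped them with bowtie 1.1.2 to mm10 at 1 reportable location, removed duplicates (Picard), and merged the MACS2 peaks of the libraries with GenomicRanges after a blacklist filter. The file holds no reads. The depth of the libraries bears on which peaks were called and where their edges lie, and it could not be taken into account here.

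Starts came from all GENCODE M21 transcripts and sequence from GRCm38.p6. Coordinates are 1-based, and distances run from the peak midpoint. Intervals of medians are binomial order-statistic intervals. Functions were tested on simulated data. Python 3.11.15, numpy 2.4.6, pandas 2.3.3, scipy 1.17.1 and matplotlib 3.10.9 were used.

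The members and lists were chosen with earlier results of these data known. Names in the main results were mainly drawn from listed genes, the 10 widest and 10 narrowest members, and members with gene symbols or next to listed pluripotency genes. Members at the limits and those with 2 lncRNAs or 2 peaks were also drawn on. Not every member of these groups was named. Listed names that GENCODE does not use were matched through RefSeq synonyms. *Dleu2*, the joint limit on CpG and GC content, the width bands, the exon counts and the pair orientations were added after values were seen. No test was made, since the set has no replicates.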

Additional observations from a re-analysis of the deposited data

How the results depend on the processing

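Of 80 alternative values for 10 results, 69 moved by less than the interval of the value in the report or, for the number of peaks, by less than 1.5 times, 11 moved further and 0 changed sign. With the midpoint within 500 bp or 2 kb of an lncRNA start, 86.19% or 56.88% of peaks covered the start, and 2.074% or 3.724% of distal lncRNA genes had a peak. That last share was 3.477% where any base of a peak counted and 3.573% without TEC genes. Another peak lay within 10 kb of 29.41% of members over 10 kb from a coding TSS, and within 5 kb or 50 kb of 15.66% or 74.3% of all members. Over whole peaks, which include the flanks, the median GC content was 50.46%. Repeats covered over 50% of the central 400 bases in 1.606% of peaks, a stricter measure than a masked base at the start. The number of peaks ranged from 181 to 320. Why the values moved was not tested. No paired analysis was possible because each peak is given once for all libraries, without a height, and so no library could be left out and no stricter peak threshold applied.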

Other observations

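Of the 3382 distal peaks of any width, 7.36% (6.53 to 8.29%) were members. The highest shares over the 21 chromosomes were on X, with 8 of 42 (19.05%, 9.98 to 33.3%), and chromosome 17, with 27 of 183 (14.8%, 10.3 to 20.6%), and the lowest above 0 on chromosome 8, with 6 of 219 (2.74%, 1.26 to 5.85%), and chromosome 3, with 4 of 140 (2.86%, 1.12 to 7.12%). These are the extremes of 21 shares, and no test of an uneven spread was made. By gene, 8 of 140 distal lncRNA genes on X had a peak of any width (5.71%, 2.92 to 10.9%) and 293 of 9423 on the autosomes (3.11%, 2.78 to 3.48%), with overlapping intervals. The rest of the 10123 distal lncRNA genes, counted on neither, had no peak and are included in the 2.97% of all. Besides *Tsix*, the pair at *Ftx* and *Platr21*, the members on X were at *2010204K13Rik*, *Gm6787*, *4933407K13Rik* and *Gm15138*. On chromosome 17 they included *Trp53cor1*, *1110038B12Rik*, 7679 bp from the heat shock gene *Hspa1b*, and *CR974462.6*, 14919 bp from *H2-K1*, a gene of antigen presentation. These shares were looked at after their values were seen, and no reason for them was tested.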
